A study of Mus musculus with 6 samples.

Results

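Among CD8 T cells of mouse melanoma tumours, the cells described here carried at least 1 UMI (unique molecular identifier, the tag of 1 captured RNA molecule) of Tcf7 and none of Havcr2. They were chosen by raw UMI counts. Barcodes with fewer than 300 genes, fewer than 500 UMIs or over 20% of UMIs from mitochondrial genes were dropped. The CD8 gate asked for a UMI of Cd3d, Cd3e or Cd3g and a UMI of Cd8a or Cd8b1, no UMI of Foxp3, Ncr1, Siglech, C1qa, C1qb or C1qc, and at most 1 UMI of Mki67 and Top2a together. It held 1761 of 52390 kept barcodes. Of these, 96 had Tcf7 without Havcr2 and are called Tcf7 cells, 462 had Havcr2 without Tcf7 and are called Havcr2 cells, 10 had both and 1193 had neither.

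Tumours were grown from YUMMER1.7, a mouse melanoma line, after 600000 cells were injected under the skin of male C57Bl/6 mice aged 6-8 weeks. In the exercise group (libraries 5, 6 and 8) mice ran for 45 minutes daily over 14 days, at a speed of 12 m/min, and in the sedentary group (libraries 1, 2 and 3) they did not. Whole tumours were dissociated with no sorting, and the 10x Genomics 3' kit reads transcripts at their 3' ends. The labels do not state that each library is a separate animal, so p-values measure the spread between these libraries.

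Tcf7 encodes TCF1, a transcription factor of the Wnt pathway that is high in naive and memory T cells and falls as T cells become effectors. In chronic infection and in tumours, CD8 T cells that keep TCF1 while carrying PD-1 and Slamf6 are known as a self-renewing progenitor population. Havcr2 encodes TIM-3, an inhibitory receptor that marks terminally exhausted cells. TCF1 is shared by naive, memory and progenitor cells, so genes other than Tcf7 are needed to tell these apart. In GRCm38, Tcf7 is a protein-coding gene at chr11:52252371-52283014 on the minus strand, and Havcr2 is one at chr11:46454935-46481255 on the plus strand.

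The marker check of the label was mixed. Every Tcf7 cell had CD8 transcripts by the rule, with Cd8a in 71, Cd8b1 in 81 and both in 56 of 96 cells, and none had a Cd4 UMI. Slamf6, a surface receptor of progenitor cells, had a UMI in 21 of 96 cells, so the class is called by its rule and not as a progenitor population. Tcf7 itself rested on 1 UMI in 70 cells, 2 UMIs in 15 and 3 or more in 11. In macrophages of the same libraries, taken as barcodes with at least 5 C1q UMIs, 2.26% of 5406 cells also had a Tcf7 UMI (lowest library 1.43%, highest 2.83%), at median depths of 4178 to 5829.5 UMIs. Havcr2, which sets the class compared, had a UMI in 20.8% of these macrophages (lowest library 17.2%, highest 29.6%). What part RNA of macrophages had in the Havcr2 class was not tested. Tcf7 cells had library medians of 2168.5 to 4337 UMIs. At the other edges of the rule, 25 Tcf7 cells had 1 UMI of Mki67 or Top2a, 3 cells were left out for having 2, 17 were left out for a single C1q UMI, and 9 of the 10 cells with both Tcf7 and Havcr2 had a single Havcr2 UMI.

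The libraries held 97426009 to 131778565 UMIs each. Exercise 5 and sedentary 2 were shallower, with medians of 5967 and 6588 UMIs per kept cell against 10570 to 12513.5 in the other 4. Among kept barcodes 309 sequences occurred in more than 1 library, and 2 of these were Tcf7 cells in 1 of the libraries. No barcode sequence was a Tcf7 cell in more than 1 library.

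A small set of deep barcodes stood apart within the Tcf7 cells. Of the 96, 16 held more than 10000 UMIs (11671 to 73345), and the next below held 7275. These 16 carried 61.7% of all UMIs of the class and 91.9% of its UMIs of 9 non-immune markers, such as Cspg4, Cdh2, Nes and Col3a1 (843 of 917). Each had at least 1 such UMI, with a median of 45.5, whereas 43 of the other 80 had none. Scrublet called 4 Tcf7 barcodes doublets, and all 4 were among the 16. Slamf6 was found in 0 of the 16 deep barcodes and in 21 of the other 80. Among Havcr2 cells, 4 of 462 were above 10000 UMIs and held 31.0% of the class's non-immune UMIs. Summed UMIs are therefore given below with every barcode, with barcodes up to 10000 UMIs or both, as stated beside each value. This limit was chosen after the data were seen.

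**Figure D1:**
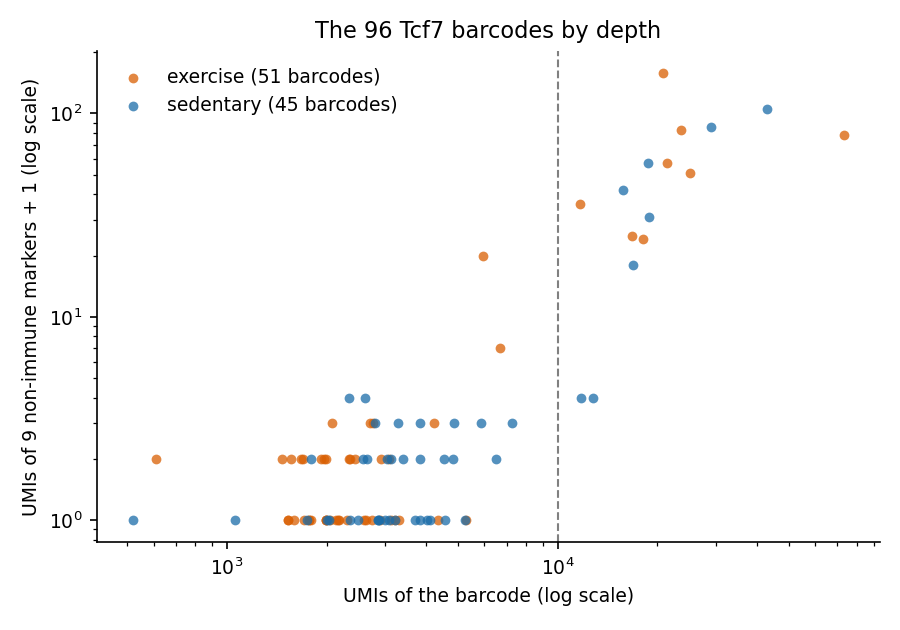
UMIs of each of the 96 Tcf7 barcodes (x axis, log scale) against UMIs of 9 non-immune markers plus 1 (y axis, log scale), 1 point per barcode. The 16 barcodes above 10000 UMIs are set off from the other 80, of which 43 had no UMI of these markers.

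Tcf7 cells were a small share of gated CD8 cells in every library, and their share did not differ between groups beyond the spread of the libraries. In exercise tumours they were 28 of 640 gated cells in library 5, 8 of 202 in library 6 and 15 of 226 in library 8, or 4.38%, 3.96% and 6.64%. In sedentary tumours they were 20 of 269 in library 1, 19 of 312 in library 2 and 6 of 112 in library 3, or 7.43%, 6.09% and 5.36%. The exact (Clopper-Pearson) 95% intervals overlapped throughout, from 1.73% to 7.65% in exercise 6 and from 4.60% to 11.2% in sedentary 1. The means were 4.99 ± 1.44% in exercise and 6.29 ± 1.05% in sedentary tumours (SD, n = 3 each), a difference of -1.30 points (exact two-sided permutation test, p = 0.3, adjusted p = 1.0 over 4 shares). With 3 against 3 libraries this test cannot give a p below 0.1. Of all kept cells they were 0.192 ± 0.134% in exercise and 0.193 ± 0.113% in sedentary tumours (exact permutation p = 1.0). A Tcf7 share counts cells with a captured transcript, so fewer such cells and less Tcf7 RNA per cell cannot be told apart.

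**Figure D2:**
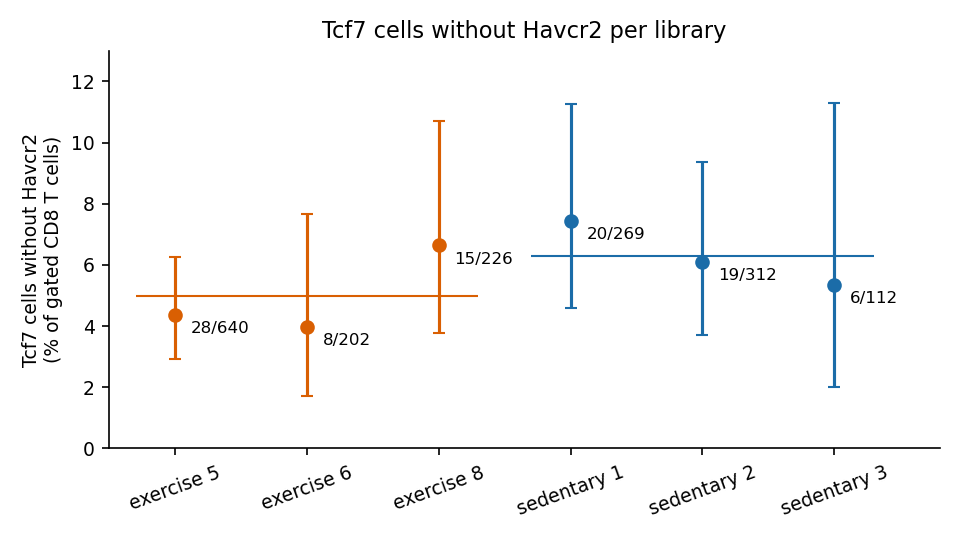
Share of gated CD8 T cells that were Tcf7 cells (y axis, percent) in each library, exercise on the left and sedentary on the right, with exact 95% binomial intervals for counting error. The 3 exercise libraries lie between 3.96% and 6.64%, and the 3 sedentary libraries between 5.36% and 7.43%, so the groups overlap.

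Genes of lymph node homing and tissue exit were found in Tcf7 cells and hardly at all in Havcr2 cells. Ccr7, the receptor that guides naive and central memory T cells to lymph nodes, had a UMI in 17 of 96 Tcf7 cells and in 0 of 462 Havcr2 cells, which allows a share of up to 0.649%. It was found in 3 of 28, 2 of 8 and 2 of 15 Tcf7 cells of exercise 5, 6 and 8, and in 2 of 20, 5 of 19 and 3 of 6 of sedentary 1, 2 and 3. Tcf7 cells were higher in 6 of 6 libraries by 22.6 ± 15.2 points (SD over libraries, exact paired sign-flip permutation test, two-sided p = 0.03125, not adjusted). With 6 libraries no smaller p can be reached. In this way 22 genes were tested, a set of 20 fixed by name and Klf2 and S1pr1, which were added to it. Sedentary 3, with 6 Tcf7 cells, gave the largest Ccr7 share. Summed over the class and set against a floor of 3 UMIs, Ccr7 was at least 18.8-fold higher in Tcf7 cells, and at least 39.1-fold higher with barcodes up to 10000 UMIs. Klf2, a transcription factor that drives S1pr1, had a UMI in 37.5% of Tcf7 cells and 1.73% of Havcr2 cells (36.3 ± 10.3 points, 6 of 6 libraries, exact sign-flip p = 0.03125). S1pr1, the receptor that T cells use to leave tissue, had a UMI in 20 of 96 Tcf7 cells and in 0 of 462 Havcr2 cells, but in 0 of 8 Tcf7 cells of exercise 6 (5 of 6 libraries, exact sign-flip p = 0.0625). Macrophages, which should lack most of these genes, had a UMI of Ccr7 in 0.388% and of S1pr1 in 0.666% of cells, and of Klf2 in 10.5%.

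Genes of naive and memory cells showed the same direction with less even support. Il7r encodes the interleukin 7 receptor, a survival receptor of resting T cells, and had a UMI in 53.1% of Tcf7 cells and 23.2% of Havcr2 cells (5 of 6 libraries, exact sign-flip p = 0.0625). Without the deep barcodes the Il7r share was higher in 6 of 6 libraries (exact sign-flip p = 0.03125). Lef1, the partner of TCF1, had a UMI in 21.9% of Tcf7 cells and 4.33% of Havcr2 cells (5 of 6 libraries, exact sign-flip p = 0.0625), and without the deep barcodes it was higher in 4 of 6 and lower in 2 (exact sign-flip p = 0.125). The macrophage shares were 9.82% for Il7r and 1.28% for Lef1.

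Progenitor markers were present in a minority of Tcf7 cells. Slamf6 had a UMI in 21.9% of Tcf7 cells and 1.95% of Havcr2 cells, higher in 5 of 6 libraries and at 0 in both classes of sedentary 3 (exact sign-flip p = 0.0625). Macrophages had a Slamf6 UMI in 12.5% of cells. Id3, a transcriptional inhibitor kept in progenitor and memory cells, had a UMI in 31.3% of Tcf7 cells and 6.06% of Havcr2 cells (26.6 ± 10.1 points, 6 of 6 libraries, exact sign-flip p = 0.03125), with 13.5% in macrophages. Without the deep barcodes the Id3 shares were 21.25% and 5.24%. The difference was then 13.8 ± 14.6 points, higher in 5 of 6 libraries (exact sign-flip p = 0.0625). Tcf7 cells held 147 Id3 UMIs with every barcode and 23 with barcodes up to 10000 UMIs. Slamf6 and Pdcd1, the pair that defines progenitor exhausted cells, were found together in 4 of 96 Tcf7 cells. Slamf6 was found in 21 and Pdcd1 in 11 of the 96. A transcript can go uncaptured, so cells with both may have been missed. Xcl1, a chemokine that attracts cross-presenting dendritic cells, had a UMI in 15.6% of Tcf7 cells and 5.19% of Havcr2 cells (5 of 6 libraries, exact sign-flip p = 0.09375), and without the deep barcodes the share was higher in 3 of 6 libraries and lower in 2 (exact sign-flip p = 0.25). Summed over all libraries, the Xcl1 level was instead lower in Tcf7 cells, at 37.7 CPM against 155 CPM in Havcr2 cells. CPM are UMIs scaled to a common total over all UMIs of a class. With barcodes up to 10000 UMIs the levels were 89.8 and 161 CPM, but the Tcf7 sums were not lower in every library. Most Xcl1 UMIs of Havcr2 cells were then in exercise 6 and 8, from 3 of 56 and 6 of 63 cells.

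**Figure D3:**
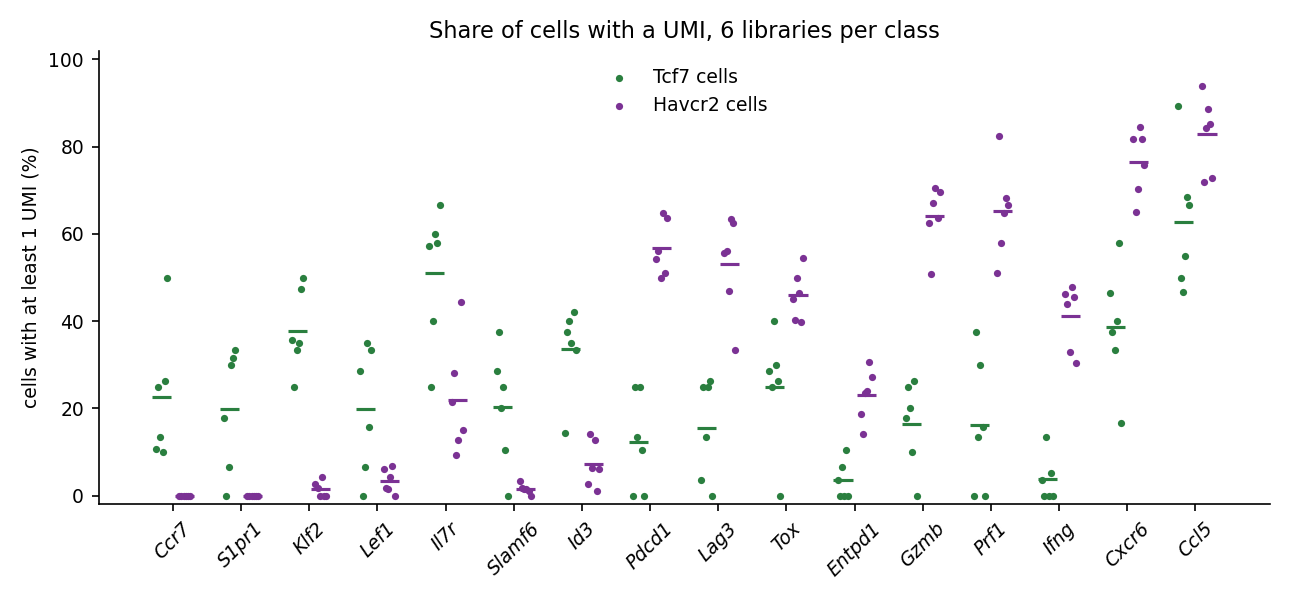
Share of cells with at least 1 UMI (y axis, percent) of 16 genes in Tcf7 cells (left of each pair) and Havcr2 cells (right), with 1 point per library and a line at the mean of 6 libraries. Ccr7 and Klf2 are higher in Tcf7 cells in 6 of 6 libraries, and Pdcd1, Lag3, Gzmb, Prf1, Ifng and Cxcr6 are lower in 6 of 6.

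Inhibitory receptors and effector genes were lower in Tcf7 cells in every library. Pdcd1, which encodes PD-1, had a UMI in 11.5% of Tcf7 cells and 55.6% of Havcr2 cells (-44.4 ± 12.2 points, exact sign-flip p = 0.03125). Lag3, a further inhibitory receptor, had a UMI in 15.6% and 55.4% of these classes (-37.5 ± 7.62 points, exact sign-flip p = 0.03125). Tigit had a UMI in 0 of 96 Tcf7 cells, which allows a share of up to 3.13%, and in 6.28% of Havcr2 cells. Entpd1, the ectoenzyme CD39 of exhausted cells, had a UMI in 4.17% of Tcf7 cells and 22.5% of Havcr2 cells, and Tox, a transcription factor of exhaustion, in 28.1% and 45.0%. Each of these was lower in Tcf7 cells in 6 of 6 libraries (exact sign-flip p = 0.03125). For Tigit the counts were small, with 0 of 8 Tcf7 and 1 of 57 Havcr2 cells in exercise 6. In exercise 8 they were 0 of 15 and 2 of 64. With so few Tcf7 cells a count of 0 is likely even at an equal share, so the Tigit direction is weakly supported.

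The killing genes Gzmb (granzyme B) and Prf1 (perforin) had a UMI in 17.7% and 14.6% of Tcf7 cells, against 63.6% and 62.3% of Havcr2 cells. Ifng, the cytokine interferon gamma, had one in 4.17% of Tcf7 cells and 43.1% of Havcr2 cells. Cxcr6, a chemokine receptor that holds T cells in tumour tissue, had one in 42.7% and 78.1%, and Ccl5, a chemokine of effector cells, in 66.7% and 85.9%. These 5 shares were lower in Tcf7 cells in 6 of 6 libraries (exact sign-flip p = 0.03125 each). Without the deep barcodes Ccl5 was lower in 5 of 6 (exact sign-flip p = 0.0625). Among the remaining named genes, Cd69 had a UMI in 22.9% of Tcf7 cells and 14.9% of Havcr2 cells (exact sign-flip p = 0.09375), and the glucocorticoid-induced Tsc22d3 in 18.8% and 5.19% (exact sign-flip p = 0.0625). Without the deep barcodes Cd69 was higher in 5 of 6 libraries and Tsc22d3 in 4 of 6 (exact sign-flip p = 0.125 and 0.1875). Fkbp5, which glucocorticoids also induce, had a UMI in 15.6% and 6.71%, higher in 6 of 6 libraries with every barcode (exact sign-flip p = 0.03125) and in 3 of 6 with barcodes up to 10000 UMIs (exact sign-flip p = 0.84375).

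Summed UMIs of Tcf7 and Havcr2 cells were then compared across genes, with the library as a block. With every barcode, edgeR's quasi-likelihood test called 579 of 1965 genes at a Benjamini-Hochberg adjusted p under 0.05, 29.5% of those tested, with 290 higher (14.8%) and 289 lower (14.7%) in Tcf7 cells. Restricted to barcodes up to 10000 UMIs it called 179 of 921 genes, or 19.4%, with 96 higher (10.4%) and 83 lower (9.01%). After every cell was thinned to 2000 UMIs, with shallower cells left out, it called 171 of 561 genes, or 30.5%. Of the 83 lower calls with barcodes up to 10000 UMIs, 65 (78.3% of them, and 22.5% of the 289) were also made with every barcode, and of the 96 higher calls 42 (43.8%, and 14.5% of the 290). Of the 289 lower and 290 higher calls with every barcode, 194 and 115 had enough UMIs to be tested without the deep barcodes. Of the 921 genes tested both ways, 640 had the same sign.

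**Figure D4:**
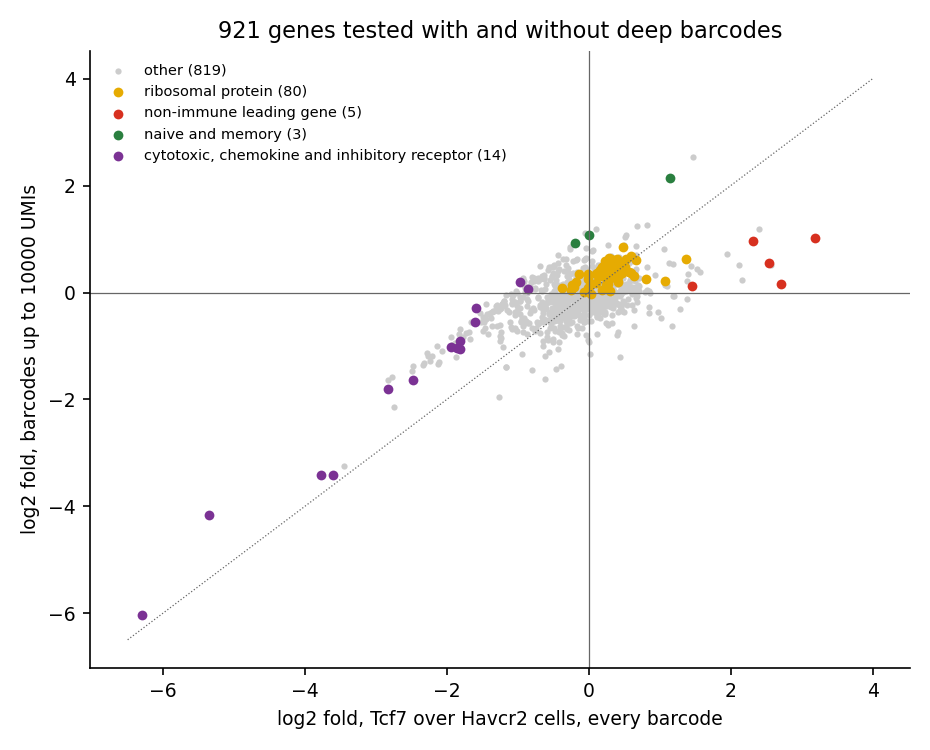
Log2 fold of Tcf7 over Havcr2 cells for the 921 genes tested both ways, with every barcode (x axis) and with barcodes up to 10000 UMIs (y axis), 1 point per gene and a dotted line where both are equal. Ccl4, Gzmb, Prf1 and Ifng stay far below 0 on both axes, while Ctsl, Mt1 and Fn1 lie near or above 2.5 on the x axis and between 0.15 and 1.03 on the y axis.

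The genes that led the higher calls with every barcode lost most of their difference without the deep ones. Levels are in CPM, the UMIs of a gene scaled to a common total over all UMIs of a class in a library. Ctsl, a lysosomal protease, had 1251, 2335 and 1933 CPM in Tcf7 cells of exercise 5, 6 and 8 and 850.4, 2755 and 2086 in those of sedentary 1, 2 and 3. In Havcr2 cells of the same libraries it had between 138 and 295 CPM, with no overlap. Its log2 fold was 3.19 with every barcode and 1.03 with barcodes up to 10000 UMIs (edgeR adjusted p = 9.73e-09 and 0.0438). The metallothionein Mt1 gave 2.71 and 0.15 (edgeR adjusted p = 4.2e-08 and 0.776), fibronectin Fn1 gave 2.54 and 0.55 (2.73e-08 and 0.18), the tetraspanin Cd63 gave 2.31 and 0.97 (8.46e-08 and 0.0875), and vimentin Vim gave 1.45 and 0.12 (2.79e-07 and 0.752). Col18a1, Nupr1, Sdc4, Timp2, Tnfaip2, Jun and Hmga2 completed the 12 genes with the smallest p, with log2 folds of 2.48 to 3.28, and had too few UMIs to be tested without the deep barcodes. The 10 non-immune markers summed to 3714 to 5495 CPM in Tcf7 cells and 1008 to 1878 in Havcr2 cells with every barcode, and to 910.2 to 2927 and 931 to 1435 with barcodes up to 10000 UMIs. What part the RNA of non-immune cells had in the higher calls with every barcode was not tested.

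Among barcodes up to 10000 UMIs, 60 of the 96 higher calls were ribosomal protein genes, and the other calls with the smallest p were Emb and Il7r. Emb encodes embigin, a partner of the lactate transporter MCT2. It had 426, 412 and 157 CPM in Tcf7 cells of exercise 5, 6 and 8 and 294, 607 and 457 in those of sedentary 1, 2 and 3, against 87.9, 87.4 and 37.7 and 22.9, 139 and 45.4 in Havcr2 cells of the same libraries. The classes did not overlap, and the log2 fold was 2.54 (SE 0.28, edgeR adjusted p = 2.66e-07), with 1.46 using every barcode (edgeR adjusted p = 0.00156). Il7r had 716, 165 and 261 CPM in exercise and 311, 428 and 549 in sedentary Tcf7 cells, against 43.1 to 228 in Havcr2 cells. Its log2 fold was 2.15 (SE 0.31, edgeR adjusted p = 1.41e-05), and 1.15 with every barcode (edgeR adjusted p = 0.0289). Pdcd4, an inhibitor of translation that is high in resting lymphocytes, had 239, 412 and 314 CPM in exercise and 450, 410.5 and 366 in sedentary Tcf7 cells, against 101 to 234 in Havcr2 cells (log2 fold 1.07, SE 0.24, edgeR adjusted p = 0.00208), and with every barcode it did not pass, at 0.52 (edgeR adjusted p = 0.0703).

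Other higher calls of this kind changed sign with every barcode. Ly6c2, a surface protein of memory and interferon-exposed T cells, had a log2 fold of 0.92 with barcodes up to 10000 UMIs and -0.20 with every barcode. Epsti1 gave 0.82 and -0.26, Ifngr1, a chain of the interferon gamma receptor, gave 0.63 and -0.17, Slfn1, a gene of T cell quiescence, gave 1.10 and -0.05, and Tmsb10 gave 0.32 and -0.44. Ablim1 gave 1.19 and 0.10, and Nsd3 0.79 and 0.06. Eef1b2 and Tpt1, which serve translation and growth, were higher in both, at 0.58 and 0.39 with barcodes up to 10000 UMIs and 0.61 and 0.65 with every barcode.

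Effector genes were lower in Tcf7 cells with and without the deep barcodes. Ccl4, a chemokine that activated T cells release, had 20.5, 0 and 6.06 CPM in Tcf7 cells of exercise 5, 6 and 8 and 8.68, 39.3 and 0 in those of sedentary 1, 2 and 3, against 3107, 2562 and 891 and 967, 941 and 346 in Havcr2 cells of the same libraries. Its log2 fold was -6.30 with every barcode (SE 0.34, edgeR adjusted p = 2.88e-09), and -6.03 with barcodes up to 10000 UMIs. Gzmb had 71.8, 87.8 and 54.5 CPM in exercise and 26.0, 86.4 and 0 in sedentary Tcf7 cells, and no Havcr2 sum was below 743 (log2 fold -3.77, SE 0.25, edgeR adjusted p = 2.9e-08, and -3.42 with barcodes up to 10000 UMIs). Prf1 gave -3.60 (SE 0.33) and Ifng -5.36 (SE 0.41), and with barcodes up to 10000 UMIs -3.41 and -4.16, each at an edgeR adjusted p of at most 6.01e-07. Gzmf, another granzyme, gave -5.43 with every barcode and had too few UMIs to be tested without the deep ones.

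Further named lower calls were of single genes with varied roles. Nkg7, a granule membrane protein, had 1245, 742 and 836 CPM in exercise and 1107, 982 and 1738 in sedentary Tcf7 cells with barcodes up to 10000 UMIs, against 2158 to 2543 in Havcr2 cells. Its log2 fold was -1.02 (SE 0.13, edgeR adjusted p = 2.04e-06), and -1.94 with every barcode. In the same order, Il2rb, a chain of the interleukin 2 and 15 receptors, gave -0.69 and -1.81, the adaptor Sh2d2a -1.30 and -2.11, the actin-binding Tmsb4x -0.72 and -1.49, AW112010 -0.95 and -1.88, and AC163354.1 -3.25 and -3.45. Plac8 gave -1.0 and -2.14. S100a4 gave -1.63 and -0.62, Actb -0.57 and -0.89, Actg1 -0.66 and -0.55, and Gapdh -1.05 and -0.43.

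**Figure D5:**
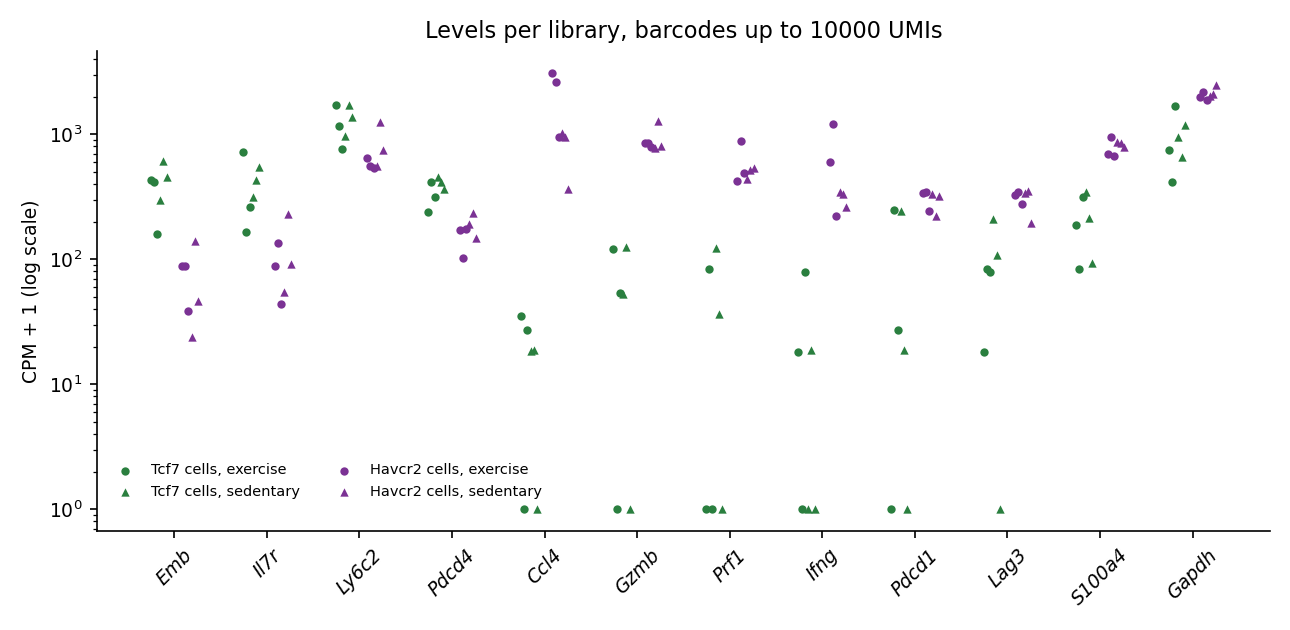
CPM plus 1 (y axis, log scale) of 12 genes in Tcf7 cells (left of each pair) and Havcr2 cells (right), with barcodes up to 10000 UMIs and 1 point per library, circles for exercise and triangles for sedentary. Emb and Pdcd4 are higher in Tcf7 cells with no overlap, and Ccl4, Gzmb, Prf1, Ifng and S100a4 are lower with no overlap.

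The promoters of genes with opposite directions are shown, from RefSeq sequence of GRCm38.p6, because TCF1, Runx and T-box factors are known regulators of these programmes. Each line holds the 250 bases before the gene's start as RefSeq places it, in the gene's direction, with motif matches in capitals on either strand, searched as CTTTGAA or CTTTGAT (TCF/LEF), TGTGGT (Runx) and AGGTGTGA (T-box). Emb, chr13:117220323-117220572 on the plus strand, and Il7r, chr15:9529877-9530126 on the minus strand, were higher in Tcf7 cells, and Gzmb, chr14:56262335-56262584 on the minus strand, Prf1, chr10:61297586-61297835 on the plus strand, and Nkg7, chr7:43436888-43437137 on the plus strand, were lower.
Emb: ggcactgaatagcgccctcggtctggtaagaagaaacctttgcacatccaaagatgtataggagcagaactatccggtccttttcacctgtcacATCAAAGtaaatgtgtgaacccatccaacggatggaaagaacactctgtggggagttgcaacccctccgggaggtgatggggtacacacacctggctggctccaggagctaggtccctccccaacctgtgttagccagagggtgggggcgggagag
Il7r: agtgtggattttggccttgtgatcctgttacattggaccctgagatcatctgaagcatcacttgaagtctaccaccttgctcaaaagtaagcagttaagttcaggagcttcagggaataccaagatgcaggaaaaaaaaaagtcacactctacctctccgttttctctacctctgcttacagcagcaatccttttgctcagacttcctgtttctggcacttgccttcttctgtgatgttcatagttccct
Gzmb: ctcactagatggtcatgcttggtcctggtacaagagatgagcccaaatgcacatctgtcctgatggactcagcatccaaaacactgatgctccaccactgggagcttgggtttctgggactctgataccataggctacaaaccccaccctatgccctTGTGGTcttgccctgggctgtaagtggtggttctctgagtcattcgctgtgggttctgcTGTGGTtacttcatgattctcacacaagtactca
Prf1: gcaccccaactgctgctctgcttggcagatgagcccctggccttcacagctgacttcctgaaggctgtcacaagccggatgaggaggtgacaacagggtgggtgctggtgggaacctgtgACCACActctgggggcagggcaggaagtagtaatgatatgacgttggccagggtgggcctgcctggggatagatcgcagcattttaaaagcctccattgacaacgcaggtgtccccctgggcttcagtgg
Nkg7: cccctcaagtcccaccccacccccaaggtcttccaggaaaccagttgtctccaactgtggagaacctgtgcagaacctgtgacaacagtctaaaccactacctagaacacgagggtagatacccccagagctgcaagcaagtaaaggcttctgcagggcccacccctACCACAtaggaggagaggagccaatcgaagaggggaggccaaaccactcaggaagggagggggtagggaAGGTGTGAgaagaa
The GENCODE gene spans start elsewhere for some of these genes. The Emb span there is chr13:117208536-117274415 and the Il7r span chr15:9505788-9530176, so that both windows lie inside the gene by that annotation. The Nkg7 span there starts at chr7:43437073, so the end of its window, with the T-box match, lies inside the gene. The Prf1 span starts at chr10:61297833, so the last bases of its window also lie inside. The Emb window held a TCF/LEF match on the minus strand 150 to 156 bases before the start, and the Il7r window held none of the motifs. Gzmb had Runx matches at 88 to 93 and 29 to 34 bases before its start, Prf1 had one at 125 to 130, and Nkg7 had a Runx match at 78 to 83 and a T-box match at 7 to 14. Windows were found for 13 of 18 genes looked up. Emb was the only one of the 13 with a TCF/LEF match and Nkg7 the only one with a T-box match, while Gzmb, Prf1, Nkg7 and Cxcr6 had a Runx match. Klf2, Lef1, Il7r, Slamf6, Id3, Ifng, Pdcd1 and Entpd1 had no match of any kind. Of 32851 windows of this length, 7.48% held the TCF/LEF letters, 14.0% the Runx letters and 1.12% the T-box letters, so these matches describe the sequences and show no binding.

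Gene lists were described by their counts with barcodes up to 10000 UMIs, beside a median log2 fold of -0.07 over all 921 genes tested, of which 10.4% were called higher and 9.01% lower. With every barcode these shares were 14.8% and 14.7%. The filter on low counts let a gene that was scarce in 1 class be tested only through the class where it was high. Counts of list genes that rose or fell thus describe the genes tested and are no separate evidence. Of 15 naive and memory genes 3 were tested and all 3 rose in Tcf7 cells: Il7r, Ly6c2 and Bcl2, which encodes a survival protein. Their median log2 fold was 1.07, and with every barcode 2 of 6 tested rose. Of 18 cytotoxic genes 7 were tested and 5 fell, Gzmb, Prf1, Nkg7, Srgn and Serpina3g (median -1.04), and with every barcode 10 of 11 fell and 1, the lysosomal membrane gene Lamp1, rose. Among cytokines and chemokines 3 of 4 tested fell (median -2.35), including Ccl5 at -0.55 (edgeR adjusted p = 0.00641). Of 13 inhibitory receptor genes 4 were tested and 3 fell: Pdcd1 at -1.81, Lag3 at -1.65 and Klrc1 at -0.91 (edgeR adjusted p = 0.00359, 0.000941 and 0.042). Cd160 had a value of 0.20 and did not pass.

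Of 6 transcription factors of terminal and late effector states tested, 3 fell and 1 rose, with a median log2 fold of -0.88. Irf8 fell by 2.15 and Id2 by 0.98 on the log2 scale (edgeR adjusted p = 0.000651 and 0.00703), Rbpj, the Notch effector, fell by 1.44, and Ikzf2 rose by 0.71, while Tox had a log2 fold of -0.78 that did not pass (edgeR adjusted p = 0.0674) and was called with every barcode at -1.83 (edgeR adjusted p = 0.000166). Among costimulatory receptors 2 of 5 tested fell, Tnfrsf4 (OX40) at -1.38 and Tnfrsf9 (4-1BB) at -1.40, and with every barcode 9 of 10 fell. Of 6 homing and residency genes tested, the integrin Itgb1 rose at 0.61 and Cxcr6 fell at -0.99 (edgeR adjusted p = 0.0362 and 0.00158). None of 5 T cell receptor signalling genes was called (median 0.02), whereas with every barcode 6 of 11 fell (median -0.87).

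Ribosomal protein genes rose together in Tcf7 cells. Among barcodes up to 10000 UMIs, 60 of 80 tested rose and none fell, with a median log2 fold of 0.37, and with every barcode 32 of 80 rose and none fell (median 0.27). Rps20 had 6413, 7172 and 9277 CPM in exercise and 6679, 6568 and 10151 in sedentary Tcf7 cells, against 5038 to 5506 in Havcr2 cells (log2 fold 0.61, edgeR adjusted p = 7.58e-06). Glycolysis genes moved the other way: 5 of 9 tested fell (Tpi1, Gapdh, Pgk1, Pkm and Ldha) and all 9 were below 0 (median -0.64). With every barcode 2 glycolysis genes rose and 2 fell, and Pkm turned round, with a log2 fold of -0.64 with barcodes up to 10000 UMIs and 0.64 with every barcode (edgeR adjusted p = 0.0398 and 0.00577). Gapdh, an enzyme of glycolysis, had 750.4, 412 and 1673 CPM in exercise and 952, 660.3 and 1189 in sedentary Tcf7 cells, below the 1871 to 2452 of Havcr2 cells.

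Remaining lists were described in the same way with barcodes up to 10000 UMIs, beside the 10.4% higher and 9.01% lower over all genes. Of 6 interferon response genes tested 2 rose, Isg15 at 1.04 among them, and 5 were above 0 (median 0.60), whereas with every barcode 1 of 9 rose and 1 fell (median 0.04). Of 22 respiratory chain genes 1 fell, Ndufb7 at -0.68, and 5 of 24 fell with every barcode and 5 of 18 after thinning to 2000 UMIs. Of 5 immediate early genes 1 fell, Jund at -0.73, and with every barcode 2 of 10 fell and 1 rose. No heat shock gene of 6 was called, and with every barcode 1 of 6 rose. Of 2 progenitor genes tested 1 rose, Ltb (lymphotoxin beta) at 0.63, and with every barcode 3 of 5 rose. No glucocorticoid or adrenergic gene had enough UMIs to be tested, and with every barcode only Nr3c1 did, at -0.29 (edgeR adjusted p = 0.508).

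Marker sums of other immune cells differed in direction. The 13 macrophage markers were lower in Tcf7 cells than in Havcr2 cells in 6 of 6 libraries, at 17.6 to 154 CPM and 231 to 963 CPM with every barcode. In Tcf7 cells of a library 8 to 12 of the 13 were at 0, and in the more numerous Havcr2 cells 3 to 6. Among these markers C1qa, C1qb and C1qc were at 0 in both classes by the gate. So were Ncr1 of the NK markers and Siglech of the dendritic cell markers. With barcodes up to 10000 UMIs the macrophage markers were also lower in 6 of 6, at 53.5 to 235 and 232 to 1015 CPM, so that the ranges touched. The 9 NK markers summed to 87.8 to 236 and 284 to 713 CPM with every barcode and to 91.4 to 339 and 284 to 794 without the deep ones, lower in 6 and 5 of 6 libraries. The 10 dendritic cell markers were lower in Tcf7 cells in 6 of 6 libraries with every barcode, at 17.6 to 104 and 133 to 1058 CPM, but in 3 of 6 with barcodes up to 10000 UMIs, at 0 to 209 and 133 to 1116. The 6 neutrophil markers were lower in 3 and higher in 3 libraries with every barcode, at 0 to 62.8 and 0 to 742 CPM, and lower in 3 and higher in 2 without the deep ones, at 0 to 82.4 and 0 to 742. B cell markers, 6 in all, had 2 UMIs in Tcf7 cells and 0 in Havcr2 cells in either setting, and were higher in 2 libraries, at up to 17.6 CPM with every barcode and 82.4 CPM without the deep ones. CD8 T cell markers, 13 in all, summed to 1327 to 5167 CPM in Tcf7 cells and 7780 to 9905 CPM in Havcr2 cells with every barcode, and to 5018 to 8254 and 8168 to 10160 with barcodes up to 10000 UMIs. The part of these differences in the results above was not tested.

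Within the Tcf7 cells, transcripts of recirculation and of tumour residency were mostly found in different cells. A UMI of Ccr7, S1pr1 or Klf2 was present in 53 of 96 cells and absent in 43, a split chosen after values were seen and so given with no test. Cxcr6 was found in 14 of the 53 (26.4%) and in 27 of the 43 (62.8%). Il7r was found in 33 of the 53 and 18 of the 43, and Slamf6 in 14 and 7. Pdcd1 was found in 4 of the 53 and 7 of the 43, but 5 of the 7 were in sedentary 1, and without that library it was found in 4 of 44 and 2 of 32. The median depth was 2926 UMIs in the 53 and 2885 in the 43. The deep barcodes were kept in this split, and in exercise 6 the median depths were 2094.5 and 12042.5 UMIs. There the cells without a recirculation transcript included barcodes of 23509 and 21314 UMIs, both with Cxcr6. By library, Cxcr6 was found in 3 of 14 cells with a recirculation transcript and 10 of 14 without in exercise 5, 0 of 4 and 3 of 4 in exercise 6, and 2 of 7 and 3 of 8 in exercise 8. In sedentary 1 it was found in 1 of 9 and 7 of 11, in sedentary 2 in 7 of 14 and 4 of 5, and in sedentary 3 in 1 of 5 and 0 of 1. The share with Cxcr6 was thus lower among cells with a recirculation transcript in 5 of 6 libraries, and sedentary 3 had a single cell without one.

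Between exercise and sedentary tumours, no gene of Tcf7 cells passed the test at this depth. With every barcode, 0 of 1468 genes passed edgeR's quasi-likelihood test at an adjusted p under 0.05, or 0.0%, while 50 had an unadjusted p under 0.05, and DESeq2 called 2, Dcn and Fst. With barcodes up to 10000 UMIs it was 0 of 526, also 0.0%, with 15 at an unadjusted p under 0.05 and 0 by DESeq2. On simulated counts of the fit with every barcode and 1468 genes, 85% of genes changed by a log2 fold of 2 were recovered, so smaller changes may have been missed. The simulation gave all genes the same spread and did not cover the fit of 526 genes.

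Fst and S100a6 had the smallest p in each direction. Fst, the activin inhibitor follistatin, had 10.3, 35.1 and 18.2 CPM in exercise 5, 6 and 8, against 174, 157 and 392 in sedentary 1, 2 and 3, with no overlap (log2 fold -3.46, SE 0.56, edgeR adjusted p = 0.232). Of its UMIs in sedentary Tcf7 cells, 2 came from barcodes up to 10000 UMIs, all in sedentary 2. S100a6, a calcium-binding protein of activated and memory T cells and of many other cells, had a log2 fold of 0.78 with every barcode (SE 0.19, edgeR adjusted p = 0.998) and 1.31 with barcodes up to 10000 UMIs (edgeR adjusted p = 0.619). With every barcode, below 0 followed Dcn at -3.62, Tnfrsf9 at -2.56, Gas1 at -1.59, Txk at -1.44, Baz1b at -1.26, Mif at -1.22 and Ldha at -1.10. Above 0 were Slc30a4 at 1.19, Gnai3 at 1.08, Psmd11 at 1.06, Tmem160 at 0.98, Lsm12 at 0.93, Gpx4 at 0.82 and Hint1 at 0.73. All of these had an edgeR adjusted p of 0.998. Of these 14 genes 4 could be tested with barcodes up to 10000 UMIs, where Mif was at -0.27, Ldha at -0.16, Tmem160 at 1.25 and Hint1 at 0.65 (edgeR adjusted p = 1.0 each).

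Lists of genes held no call between the groups in either setting. All 7 naive and memory genes tested with every barcode were below 0 in exercise against sedentary tumours, with a median log2 fold of -0.33 beside -0.01 over all genes, and 4 of 5 with barcodes up to 10000 UMIs (median -0.42). All 9 glycolysis genes were below 0 with every barcode (median -0.44), but 3 of 5 were above 0 with barcodes up to 10000 UMIs (median 0.13). A Pdcd1 UMI was found in 12.8 ± 12.5% of Tcf7 cells in exercise and 11.8 ± 12.6% in sedentary tumours (SD, n = 3 each, exact permutation p = 1.0). In shares of cells with every barcode, S1pr1 averaged 8.17% in exercise and 31.6% in sedentary Tcf7 cells, Il7r 40.7 ± 16.1% and 61.5 ± 4.58%, and Xcl1 9.21% and 19.2%. These 3 had the smallest p this design allows (exact permutation p = 0.1, not adjusted over 22 genes), and none passes 0.05. With barcodes up to 10000 UMIs S1pr1 averaged 8.16% and 39.0% (exact permutation p = 0.1). Il7r then averaged 44.2 ± 10.3% and 61.4 ± 11.9% (exact permutation p = 0.2), and Xcl1 8.16% and 16.2% (exact permutation p = 0.5).

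The exercise effect was also set against the same effect in Havcr2 cells of the same libraries. With every barcode, 0 of 2737 genes differed in edgeR's interaction test, or 0.0%, with 103 at an unadjusted p under 0.05 and 0 by DESeq2. Tnfrsf9, Xcl1 and Mif had the smallest p, with differences of -2.73, -5.19 and -1.24 in log2 fold (edgeR adjusted p = 0.236, 0.236 and 0.998), and Tnfrsf9 and Mif were at -1.11 and -0.25 with barcodes up to 10000 UMIs (edgeR adjusted p = 1.0 each). Restricted to barcodes up to 10000 UMIs, 2 of 1281 genes passed, or 0.156%, with 1 in each direction (0.0781%), 48 at an unadjusted p under 0.05 and 0 by DESeq2. After thinning to 2000 UMIs 2 of 764 passed, or 0.262%, both higher, S100a6 and Mgp. The 2 among barcodes up to 10000 UMIs were Xcl1, with a difference of -4.48 (SE 0.99), and S100a6, with 1.26 (SE 0.28), both at an edgeR adjusted p of 0.0221. On simulated counts of the interaction with every barcode and 2737 genes, 62.5% of genes changed by a log2 fold of 2 were recovered. Differences of that size may thus have been missed.

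The Xcl1 difference rested on few molecules. Tcf7 cells up to 10000 UMIs held 4, 0 and 1 Xcl1 UMIs in exercise 5, 6 and 8 and 5, 11 and 0 in sedentary 1, 2 and 3. Of the 11 in sedentary 2, 8 came from 1 barcode of 6519 UMIs. Havcr2 cells had 65.4, 518 and 566 CPM in exercise and 68.7, 9.51 and 0 in sedentary tumours. Leaving out exercise 6, exercise 8 or sedentary 2 ended the call, with differences of -4.10, -3.39 and -2.88 (edgeR adjusted p = 0.111, 0.517 and 1.0), and leaving out any of the other 3 libraries kept it.

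With barcodes up to 10000 UMIs, S100a6 had 2115, 3050 and 8598 CPM in exercise and 1419, 1981 and 2652 in sedentary Tcf7 cells, against 2356, 4276 and 3364 and 2691, 3951 and 3791 in Havcr2 cells. Exercise 8 was the highest Tcf7 sum, and without it the difference was 0.56 and not called (edgeR adjusted p = 1.0). Without sedentary 2 it was 1.09 and not called either (edgeR adjusted p = 0.253). Tcf7 cells of exercise 8 up to 10000 UMIs also had the highest sum of the 10 non-immune markers, 2927 CPM against at most 1003.6 in sedentary Tcf7 cells, and the highest Ctsl, at 1333. The part of these in the S100a6 value was not tested.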

How the data were processed

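Single-cell RNA was measured in 6 libraries of whole dissociated tumours, 3 of exercise and 3 of sedentary mice. The authors deposited raw UMI counts per gene and barcode, 31053 genes in all, already limited to barcodes called as cells. Per the submitters' processing notes, Cell Ranger 6.1.2 and the build mm10 were used, and the file headers name software version 3.1.0 as the writer of the matrices. Free RNA was not corrected for. Scrublet (scanpy 1.11.5) called 1.14% to 2.74% of kept barcodes doublets per library, against 5.76% to 8.06% expected at 0.8% per 1000 barcodes. Called doublets stayed in, and leaving them out was an alternative.

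UMIs were summed per library and class. Sums were tested with edgeR 4.0.16 (quasi-likelihood test, TMM scaling, filterByExpr, Benjamini-Hochberg over all genes tested) in R 4.3.3, with DESeq2 1.42.0 as an alternative. The comparison of classes and the interaction had the library as a block, since both classes of a library come from the same suspension. Genes of the gate were left out of the tests. CPM values are UMIs scaled to a common total per class sum. Shares were tested with exact permutation tests over libraries (scipy 1.17.1), and exact 95% intervals and limits of a count of 0, set at 3 counts, cover counting error only. The tests were checked on simulated counts with 200 genes changed. On those, all 3 comparisons gave between 2 and 6 false calls.

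The members and gene lists were chosen with earlier results of these data known. Named were the 12 genes of smallest p in each direction that passed and had 1 sign in 6 of 6 libraries for the classes, 8 in each direction for the groups and 3 for the interaction, leaving out ribosomal protein, mitochondrial, Gm and Rik genes. Beside these stand up to 4 genes per list and a set of 20 defining genes whatever their value. Shares of Klf2 and S1pr1 were tested beside this set, of which they were no part. The rule was repeated on barcodes up to 10000 UMIs, and other genes counted among 5 or fewer calls of a list were named after their values were seen. Alternatives were another test, another scaling, no filter, thinning to 2000 UMIs, stricter gates and leaving out libraries. Some named genes, and 1 of the 4 shares tested, are not reported here.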

Additional observations from a re-analysis of the deposited data

Results flagged for a closer look

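In 2 genes the exercise effect differed between Tcf7 and Havcr2 cells with barcodes up to 10000 UMIs, by edgeR's interaction test. For Xcl1 the effect in Tcf7 cells was lower by 4.48 on the log2 scale, a difference of -4.48 (edgeR adjusted p = 0.0221), resting on 5 UMIs in exercise and 16 in sedentary Tcf7 cells. For S100a6 the difference was 1.26 (edgeR adjusted p = 0.0221), and Tcf7 cells of exercise 8 held the highest level, 8598 CPM. DESeq2 called neither. With every barcode the differences were -5.19 for Xcl1 and 0.80 for S100a6 and neither passed (edgeR adjusted p = 0.236 and 0.998), but S100a6 was called there after thinning to 2000 UMIs, at 1.05 (edgeR adjusted p = 0.00567). Xcl1 was called with every barcode when exercise 5, sedentary 1 or sedentary 3 was left out, at -5.09 to -7.18.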

How the results depend on the processing

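Between exercise and sedentary Tcf7 cells, DESeq2 called 2 genes, the test without a filter on low counts 7 and the test without Scrublet doublets 1, and leaving out each library gave 0 to 1. With barcodes up to 10000 UMIs, leaving out each library gave 0 to 8 calls. The 8 came without exercise 5, with S100a6, Spp1, Mgp, Cd63, Ctsl, Lgals1 and Fth1 higher and Ccl5 lower. Between Tcf7 and Havcr2 cells, 1323 genes were called without the filter, 171 after thinning to 2000 UMIs, 179 with barcodes up to 10000 UMIs, 20 with at least 2 Tcf7 UMIs, and 420 to 589 when each library was left out. With barcodes up to 10000 UMIs the calls were 315 without the filter, 83 without sedentary 2 and exercise 5, and 132 to 182 when each library was left out. The interaction gave 4 calls without the filter, 2 after thinning, 2 with barcodes up to 10000 UMIs, and 0 to 3 when each library was left out. With barcodes up to 10000 UMIs it gave 0 with DESeq2, 1 without the filter, 1 with barcodes up to 6000 UMIs, 0 without sedentary 2 and exercise 5, and 0 to 4 when each library was left out. The exercise minus sedentary difference in the share of all kept cells was 0.0106 points without Scrublet doublets and -0.0765 to 0.0526 when each library was left out. The share with Pdcd1 differed by -3.76 points without Scrublet doublets, -3.30 with barcodes up to 10000 UMIs, -1.96 after thinning, and -5.18 to 7.51 when each library was left out. Their causes were not tested.

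Log2 folds of Tcf7 over Havcr2 cells that changed sign were, after thinning, with barcodes up to 10000 UMIs and with at least 2 Tcf7 UMIs in that order, Epsti1 (0.63, 0.82 and 0.64), Ifngr1 (0.31, 0.63 and 0.39), Ly6c2 (0.55, 0.92 and 0.28) and Tmsb10 (0.12, 0.32 and 0.058). Slfn1 was 0.080 without doublets, 0.036 with at least 2 Cd8 UMIs, 1.10 with barcodes up to 10000 UMIs and -0.35 to 0.10 when each library was left out. Ablim1 was -0.18 and Nsd3 -0.21 without the filter. Leaving out each library gave -0.037 to 0.29 for Ablim1, -0.10 to 0.17 for Nsd3 and -0.062 to 0.64 for Cd69, and Nsd3 was -0.14 without sedentary 2 and exercise 5. Among single genes named for this comparison, 691 other values kept direction and call, 37 lost the call and 6 gained it. No paired analysis was possible because exercise and sedentary libraries share no replicate number. Of the 96 Tcf7 cells 22 had fewer than 2000 UMIs, as did 110 of the 462 Havcr2 cells. What part depth had in the tests was not tested.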
